A study of Mus musculus with 6 samples.

Results

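The MYC and MAX network was examined in PA6 stromal cells through 9 of its genes, MYC, MYCN, MAX, MXD1, MXD3, MXD4, MXI1, MNT and MLX. They were taken as every probe that carries one of these symbols on the array, and this gave 14 probes for 9 of the 30854 gene names. PA6 is a mouse line of stromal cells on which the study grew embryonic stem (ES) cells in co-culture, and it asked how FGF2 and BMP4 direct these cells to endothelium. Confluent monolayers of PA6 cells alone spent 3 h in serum-free medium that held no growth factor (-GFs), recombinant FGF2 at 20 ng/ml or recombinant BMP4 at 10 ng/ml. Each of the 3 groups had 2 replicates, and each replicate was 1 untreated well, 1 well with FGF2 and 1 well with BMP4. The total RNA of each well was read on an Illumina MouseWG-6 v2.0 array, 6 in all. All groups were therefore serum-free for the same 3 h, no group was measured at another time, and all wells came from 1 cell line.

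MYC and MYCN are transcription factors that bind DNA only as partners of MAX, at the E-box CACGTG, and are known for switching on genes of ribosome production, nucleotide synthesis and cell growth. MXD1, MXD3, MXD4, MXI1 and MNT also pair with MAX, occupy the same sites and recruit SIN3 and histone deacetylases, which repress transcription. MLX is a MAX-like protein that pairs with the glucose-responsive factors MondoA and ChREBP and with some of the MXD proteins, and MYC itself is an early gene of the response of fibroblasts to growth factors.

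Promoter sequences from RefSeq (GRCm38.p6, 250 bases before to 50 bases after the start of a gene) were found for 8 of the 9 genes, in 10 windows. The gene without a window was MYC, so that its promoter was not searched for either motif below. The motif CACGTG, which reads the same on both strands, was present in 4 of the 10 windows (40%), those of MXD4, MAX, MLX and MNT, against 7.15% of all 32851 windows. The 4 stretches are shown because they hold the letters that the proteins of the network themselves recognize, which are in capitals. MXD4, the gene on which most of the results turn, is shown from 250 bases upstream of its start (chr5:34187711-34187960, minus strand), with the motif beginning 219 bases before the start. The others are shown as 46 bases around the motif, for MAX at chr12:76962226-76962271 on the minus strand, for MLX at chr11:101087230-101087275 on the plus strand and for MNT at chr11:74830781-74830826 on the plus strand.
MXD4: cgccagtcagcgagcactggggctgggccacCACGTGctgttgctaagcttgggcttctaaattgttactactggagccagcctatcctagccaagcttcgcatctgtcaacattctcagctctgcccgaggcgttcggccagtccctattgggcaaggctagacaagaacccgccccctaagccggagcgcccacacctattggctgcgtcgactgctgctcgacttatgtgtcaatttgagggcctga
MAX: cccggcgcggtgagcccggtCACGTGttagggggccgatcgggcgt
MLX: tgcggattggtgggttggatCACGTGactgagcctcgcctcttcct
MNT: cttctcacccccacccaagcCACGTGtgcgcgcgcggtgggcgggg
The motif began 3 bases before the start of MAX, 40 before that of MLX and 123 before that of MNT. A second motif, TTTGGCGC, which is recognized by E2F factors and was searched on both strands, was found among these windows only in that of MYCN (1 of 10 windows, 10%, against 0.514% of all windows). A match describes the sequence and does not show that a protein was bound there.

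The values are bead intensities, and all levels below are log2 of the intensity after cubic spline normalization between arrays. A probe was taken as detected on an array when its detection p, the share of negative control probes that were brighter, was under 0.05. On the 6 arrays, median intensities were 153.4 to 168.1, and between 15509 and 16459 probes were detected. The lowest log2 level of a detected probe was 7.56 to 7.62. Stromal markers were detected on all arrays, 10 of 10, among them COL1A1, PDGFRB and PRRX1, whereas NANOG and SOX2 of ES cells, PECAM1 and CDH5 of endothelium, PTPRC of haematopoietic cells and EPCAM of epithelium were detected on none. Single markers of these other types were detected on all 6 arrays (POU5F1, TEK, CD14, LYZ2 and CDH1). The summed intensity of the stromal markers was 125738 to 154141 in -GFs, 99139 to 108685 with FGF2 and 125037 to 131308 with BMP4. The sums of the FGF2 arrays were below those of both other groups. Single stromal markers did not all move this way, since with FGF2 the log2 change was below 0 for 7 of 10 (median -0.25), none of which passed, whereas TWIST1 rose by 1.18 (adjusted p 0.0106 with limma). Per the methods each array received the same amount of labelled RNA, so that these sums do not measure the number of cells. The part of these differences in the results was not tested.

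Of the 14 probes, 3 were detected on all 6 arrays, both probes of MXD4 and 1 of MLX, and 6 were detected on no array. In all, 32 of 84 probe values were above detection. For 6 of the 9 genes, at least 1 probe was detected on both arrays of some group, and these 6 were tested with limma together with all other such genes (11872). MYCN, MXD1 and MXI1 were detected on no array and were not tested.

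**Figure D1:**
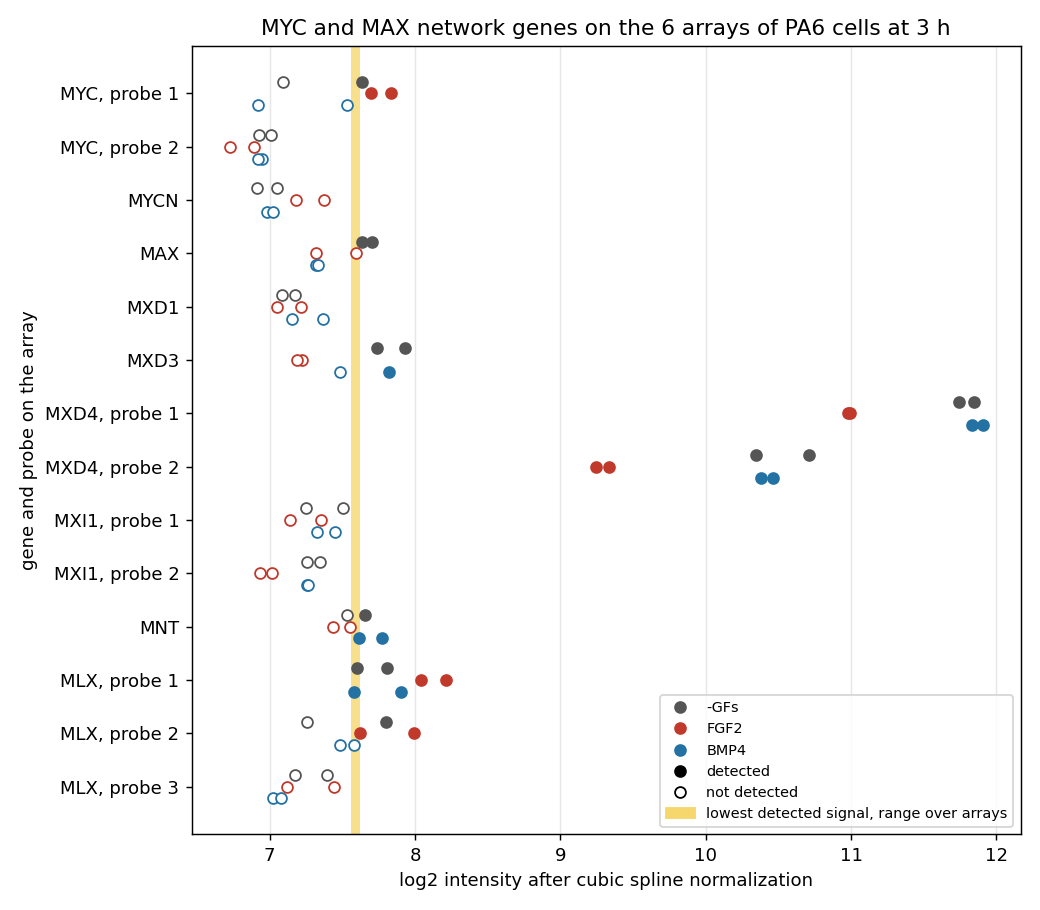
Log2 intensity (horizontal axis) of each of the 14 probes (vertical axis) on every array, in grey for -GFs, red for FGF2 and blue for BMP4, with filled points where the probe was detected and open points where it was not; the band is the range of the lowest detected level, 7.56 to 7.62. Both MXD4 probes lie far above the band with the FGF2 arrays to the left of the others, and most other points lie within or near the band.

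Among the antagonists, MXD4 was lower with FGF2 on both of its probes. The brighter probe read 11.74 and 11.84 in -GFs, 10.98 and 10.99 with FGF2, and 11.83 and 11.91 with BMP4. Both FGF2 arrays were below all 4 others, and the -GFs and BMP4 arrays overlapped. The log2 fold change of FGF2 against -GFs was -0.81 (SE 0.14, 95% interval -1.14 to -0.47), a fall of 1.75-fold, with an adjusted p of 0.0266 from limma. This was the 353rd place by fall among the 11872 genes. The dimmer probe read 10.35 and 10.71 in -GFs, 9.24 and 9.33 with FGF2, and 10.38 and 10.47 with BMP4. Again both FGF2 arrays were the lowest, with no overlap. In the fit over all 16111 detected probes the dimmer probe changed by -1.24 (SE 0.17, 2.36-fold lower) with an adjusted p of 0.0148.

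The dimmer probe of MXD4 therefore passed both parts of the threshold of the study, a log2 fold change beyond 1 and an adjusted p under 0.1, and the brighter probe, which stands for the gene, passed only the second. In the fit over probes 1.12% of all probes were called lower. Neither probe of MXD4 passed when an array of FGF2 was left out, and the brighter probe did not pass without -GFs replicate 2. Such a fit leaves 1 array in a group, and far fewer of all genes passed in it. The log2 fold changes themselves stayed between -0.86 and -0.75 for the brighter probe and between -1.42 and -1.06 for the dimmer probe when an array of -GFs or FGF2 was left out.

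MXD3, an MXD factor that has been linked to proliferating cells, was close to the limit of detection. It read 7.74 and 7.93 in -GFs, 7.22 and 7.19 with FGF2, and 7.82 and 7.48 with BMP4. It was detected on both -GFs arrays and on BMP4 replicate 1, and on neither FGF2 array. Since both FGF2 values were below detection, the fall against -GFs is given only as at least 1.19-fold, with an adjusted p of 0.0843 from limma. Such a bound, here and below, sets the mean of the brighter group against the lowest detected level. It leaves out the spread between arrays and is not a confidence limit. MXD3 entered the test only through -GFs, the group in which it was bright, so that some fall elsewhere was built into its selection. It did not pass when any 1 of the 4 arrays compared was left out, where fewer of all genes passed as well.

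MNT, a broadly expressed antagonist of MYC, passed in no comparison. It read 7.66 and 7.53 in -GFs, 7.55 and 7.44 with FGF2, and 7.61 and 7.77 with BMP4, and was detected on -GFs replicate 1 and both BMP4 arrays. The groups -GFs and FGF2 overlapped (adjusted p 0.74 with limma), and both FGF2 arrays, on which it was undetected, were below both BMP4 arrays. It was at least 1.07-fold lower with FGF2 than with BMP4, with an adjusted p of 0.516 from limma. The fitted 95% interval, -0.56 to 0.16 on the log2 scale, included 0. MNT entered the test only through the BMP4 arrays, the group in which it was bright.

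MXD1 and MXI1, the other antagonists, had no value above detection. MXD1 lay between 7.05 and 7.37 over the 6 arrays, and the brighter MXI1 probe between 7.14 and 7.50. If all probes are tested whatever their detection, the log2 change with FGF2 was 0.00 for MXD1 (adjusted p 0.998 with limma) and -0.13 for MXI1 (adjusted p 0.845), values that describe signal at background. A further 2 probes are listed on the array under the name MAD, which RefSeq gives as a synonym of Mxd1, and 1 of them was tested. It read 7.91 and 8.08 in -GFs, 7.33 and 7.56 with FGF2, and 7.80 and 8.09 with BMP4, and was undetected on both FGF2 arrays only. The FGF2 arrays did not overlap with the others. Its fall with FGF2 against -GFs is given as at least 1.33-fold, with an adjusted p of 0.119 from limma and of 0.0054 with the replicate number as a block, so that it passed only in the latter fit. Like MXD3, it entered the test through the groups in which it was bright. It was not counted among the 9 genes because its symbol differs.

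The activators were at the edge of detection. The brighter MYC probe read 7.09 and 7.64 in -GFs, 7.70 and 7.84 with FGF2, and 6.92 and 7.53 with BMP4. It was detected on both FGF2 arrays and on -GFs replicate 2, and on neither BMP4 array. Both FGF2 values were the highest of the 6, but the gap to -GFs replicate 2 was small. The log2 change with FGF2 was 0.40 (SE 0.26, 95% interval -0.22 to 1.03) and did not pass, with an adjusted p of 0.408 from limma. Taken within each replicate, FGF2 exceeded -GFs by 0.61 in replicate 1 and by 0.20 in replicate 2. The fit that blocks on the replicate number, as the labels allow, gave an adjusted p of 0.0481. The second MYC probe was detected on no array. MYC entered the test through the FGF2 arrays, and at this level the interval runs from a small fall to a rise of 1.03 on the log2 scale.

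MYCN was not detected on any array, with levels of 6.91 and 7.05 in -GFs, 7.37 and 7.18 with FGF2, and 6.98 and 7.02 with BMP4. The FGF2 values were the highest but remained below detection. No fold is given for it.

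MAX, the common partner, read 7.63 and 7.70 in -GFs, 7.32 and 7.59 with FGF2, and 7.32 and 7.33 with BMP4. It was detected on both -GFs arrays only, which were the highest of the 6, and it entered the test only through that group. Neither comparison passed, with an adjusted p of 0.471 for FGF2 and 0.999 for BMP4 from limma. The 95% intervals of the fitted log2 differences, -0.59 to 0.16 and -0.72 to 0.03, include 0.

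MLX, the MAX-like partner of MondoA and ChREBP, was detected on all arrays with its brightest probe. This probe read 7.60 and 7.81 in -GFs, 8.22 and 8.04 with FGF2, and 7.58 and 7.90 with BMP4. Both FGF2 arrays were above the 4 others. The log2 change with FGF2 was 0.42 (SE 0.18, 95% interval -0.00 to 0.84), with an adjusted p of 0.216 from limma. Within the replicates the difference was 0.61 and 0.23, and the fit that blocks on the replicate number gave an adjusted p of 0.0411. The second MLX probe changed by 0.28 (adjusted p 0.513), with -GFs and FGF2 arrays overlapping, and the third was detected on no array.

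With FGF2, 0 of the 6 tested genes were called by fold and adjusted p with limma, against 3.53% of all genes, and 2 of 6 had an unadjusted p under 0.05, as had 23.3% of all genes. Without the threshold on the fold, 2 of 6 passed at an adjusted p under 0.1, MXD4 and MXD3, both lower, where 5.78% of all genes were lower and 6.03% higher. With the replicate block, 4 of 6 passed, MYC and MLX higher and MXD3 and MXD4 lower, against 18.1% of all genes higher and 19.6% lower. Over the 6 genes the median log2 change was -0.16, and over all genes it was -0.02. These counts include genes that were retained because 1 group was bright, and only MXD4 and MLX were detected on every array.

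**Figure D2:**
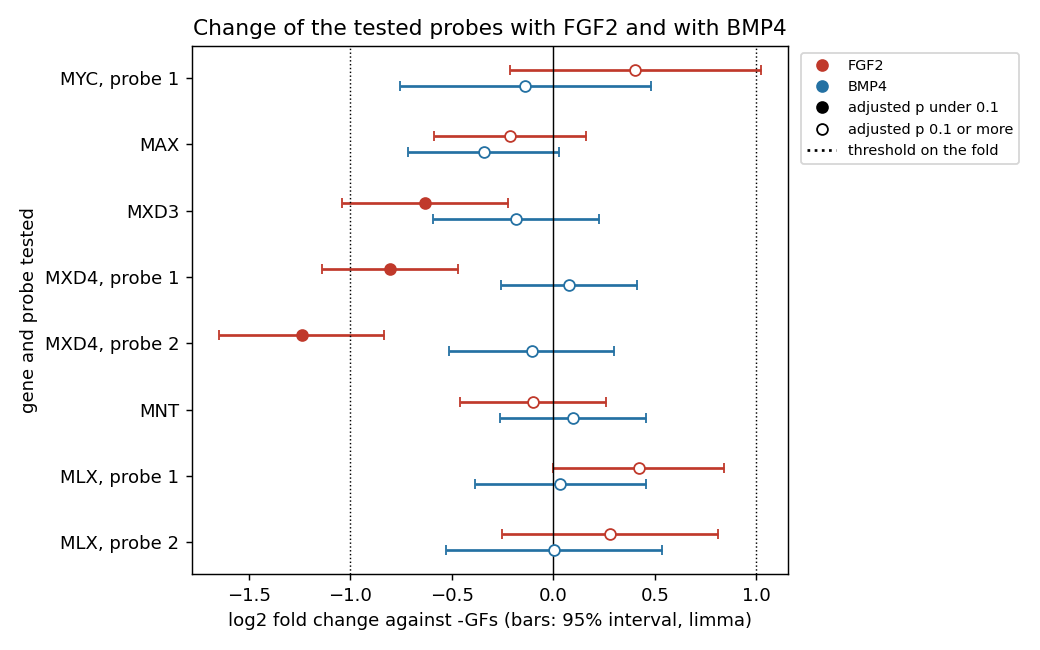
Log2 fold change against -GFs (horizontal axis) of the 8 tested probes (vertical axis) with FGF2 in red and BMP4 in blue, with 95% intervals from limma and filled points for an adjusted p under 0.1; the dotted lines mark a log2 change of 1 in each direction. The FGF2 points of MXD3 and of both MXD4 probes are filled and lie left of 0, and all BMP4 points are open. For MYC, MAX, MXD3, MNT and the second MLX probe a point can rest on signal below detection in 1 of the groups.

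BMP4 changed none of the genes detectably. The fitted log2 differences of the 6 genes against -GFs ranged from -0.34 for MAX to 0.10 for MNT, and MAX and MYC were undetected on both BMP4 arrays, so that theirs describe signal at background. The change of MXD4 was 0.08 on the brighter probe (95% interval -0.26 to 0.41) and -0.11 on the dimmer probe (95% interval -0.51 to 0.30). For MXD3 it was -0.18, and for MLX 0.03. With limma, 0 of 6 were called and 0 of 6 passed on the adjusted p alone, 0 had an unadjusted p under 0.05 against 1.81% of all genes, and the lowest unadjusted p was 0.066 for MAX. Of all genes 0.00842% passed, by either rule. The intervals of MXD4 leave out a change of the size seen with FGF2 on the same probe.

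The response to both factors was then set side by side, FGF2 against BMP4, which uses the same FGF2 arrays. MXD4 was 1.84-fold lower with FGF2 than with BMP4 on the brighter probe (log2 -0.88, SE 0.14, adjusted p 0.0238 with limma), and on the dimmer probe the log2 difference was -1.13 (adjusted p 0.0218). Both FGF2 arrays were below both BMP4 arrays on each probe. The dimmer probe was called, where 0.894% of all probes were called lower. MYC, undetected on both BMP4 arrays, was at least 1.13-fold higher with FGF2 (adjusted p 0.299 with limma, 0.0118 with the block), but it had entered the test only through the FGF2 arrays. The fitted 95% interval of MYC, -0.08 to 1.17 on the log2 scale, included 0. MXD3, undetected on both FGF2 arrays, was at least 1.05-fold lower with FGF2 (adjusted p 0.199, 0.0343 with the block). MLX differed by 0.39 (adjusted p 0.274, 0.0655 with the block).

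In that comparison 0 of 6 genes were called, against 3.07% of all genes, and 2 of 6 had an unadjusted p under 0.05, as had 21.3% of all genes. On the adjusted p alone 1 of 6 passed with limma, MXD4, which was lower, as were 4.22% of all genes. With the block 4 of 6 passed, with MYC and MLX higher and MXD3 and MXD4 lower, where 16.3% of all genes were higher and 17.8% lower. Of these 4, MYC and MXD3 had been retained through the group in which they were bright. MXD4 no longer passed in this comparison when an array of FGF2 or BMP4 was left out, although its log2 difference kept between -0.92 and -0.85.

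The wider network was examined through a list of cofactors, regulators and further relatives, of which 24 of 33 were tested. With FGF2, 3 of 24 passed upward and 0 downward with limma, against 6.03% and 5.78% of all genes. An unadjusted p under 0.05 was seen for 5 of 24, and for 23.3% of all genes. With the block, 8 were higher and 2 lower, where 18.1% and 19.6% of all genes were. BIN1, which binds MYC and restrains it, was the most changed. It read 11.06 and 11.45 in -GFs, and 12.26 and 12.92 with FGF2, a log2 change of 1.34 (adjusted p 0.0435). USP28, a deubiquitinase that stabilizes MYC, rose by 0.74 (adjusted p 0.0673), and SKP2, a ubiquitin ligase subunit that acts on MYC, rose by 0.64 (adjusted p 0.0497). The median log2 change over the 24 was 0.09, against -0.02 over all genes, and with median scaling of the arrays, which lowers all genes, it was 0.00 against -0.10. Above 0 were 15 of 24, or 12 of 24 with median scaling. None of the 3 passed without FGF2 replicate 1, without FGF2 replicate 2 or without -GFs replicate 1. The MondoA gene MLXIP, listed on the array as AW228700, was detected and tested but was not among those that passed.

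Genes that MYC is known to activate moved upward with FGF2. Of 45 listed genes, 36 were tested. With limma 12 of 36 rose, 0 fell and 24 did not pass, against 6.03% of all genes higher and 5.78% lower. At an unadjusted p under 0.05 there were 21 of 36, against 23.3% of all genes. The log2 change was above 0 for 35 of 36 genes, with a median of 0.57 against -0.02 over all genes. Called by fold as well were 8 of the 36, where 3.53% of all genes were called in either direction. Of the 36, 33 were detected on all arrays, and the 3 that were not (EIF4E, NOLC1 and IFRD2) are not among the 12. The list was chosen with earlier results of these data known, so its direction is a description.

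NOL5A, listed on the array under the earlier name of Nop56 and a core protein of the particles that modify ribosomal RNA, rose most. It read 10.04 and 10.52 in -GFs, 11.99 and 11.98 with FGF2, and 10.30 and 10.80 with BMP4, and its log2 change with FGF2 was 1.70 (SE 0.23, adjusted p 0.014 with limma). GNL3, which encodes the nucleolar protein nucleostemin, read 12.01 and 12.04 in -GFs, 13.63 and 13.43 with FGF2, and 12.41 and 12.30 with BMP4. Its change was 1.51 (SE 0.15, adjusted p 0.0076). For both genes the FGF2 arrays stood above all others. NOL5, now Nop58 and the partner of Nop56, read 10.36 and 9.85 in -GFs, 11.81 and 11.25 with FGF2, and 10.71 and 9.93 with BMP4. Its log2 change was 1.43 (SE 0.32, adjusted p 0.0524), and its FGF2 arrays too did not overlap with the others.

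The other 9 genes that rose were WDR43, TFRC, GRWD1, DDX21, PPAN, ODC1, EIF4A1, PA2G4 and NME1, by 0.53 to 1.37. WDR43, DDX21 and PPAN act in ribosome assembly, TFRC is the transferrin receptor, and ODC1 makes polyamines. ODC1 rose by 0.73 (adjusted p 0.0626 with limma). CDK4, a cyclin-dependent kinase, was the only gene of the list with a value below 0 (-0.29). The count of 12 became 3 of 37 without FGF2 replicate 1 and 3 of 36 without FGF2 replicate 2, where 1.46% and 0.856% of all genes passed in either direction, and 7 of 36 without -GFs replicate 1. With the replicate block, 29 of 36 rose and 0 fell, where 18.1% of all genes were higher and 19.6% lower. Under the other scalings of the arrays, 34 or 35 of 36 were above 0, with 12, 6 and 7 passing under quantile normalization, background correction from the control probes and median scaling. Of all genes that passed with FGF2, 51.1% were higher after the spline and 35.6% after median scaling. In promoter windows of this list, CACGTG was found in 17 of 55 (30.9%), against 7.15% of all windows.

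**Figure D3:**
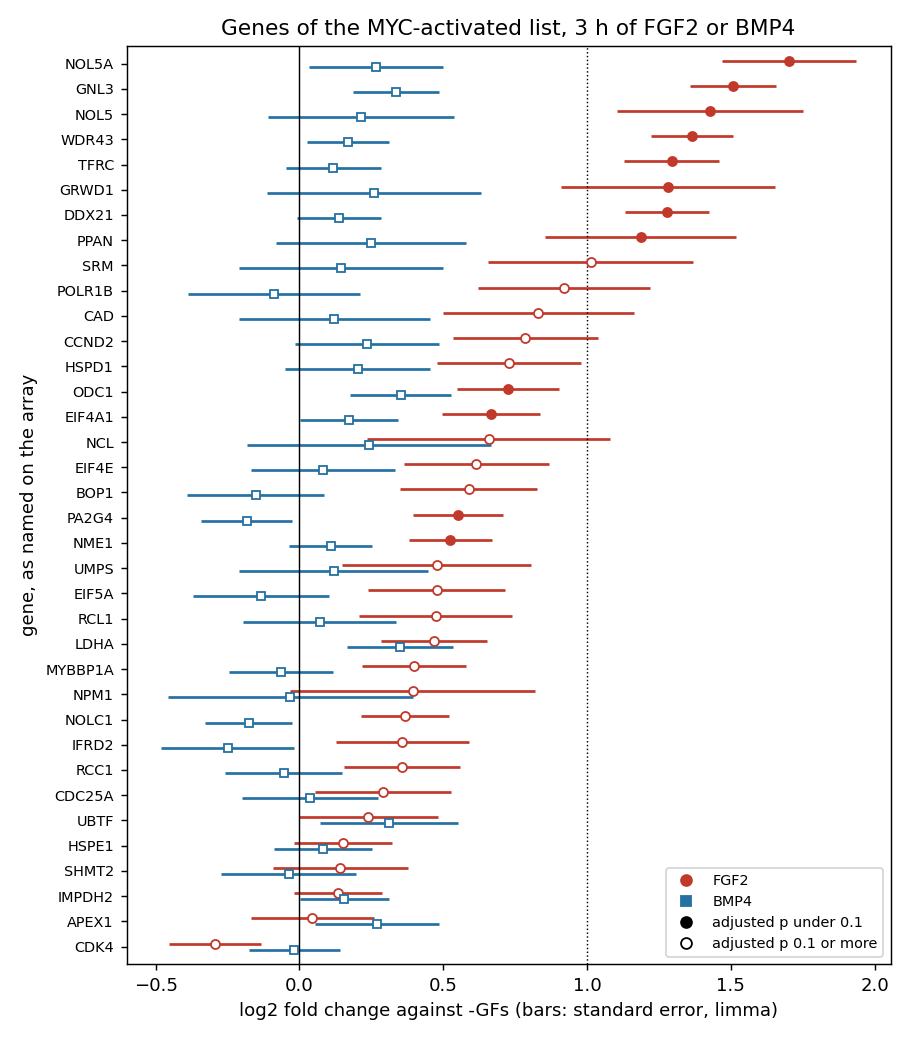
Log2 fold change against -GFs (horizontal axis, bars are the standard error from limma) of the 36 tested genes of the MYC-activated list (vertical axis, ordered by the change with FGF2), with FGF2 as red circles and BMP4 as blue squares, filled for an adjusted p under 0.1. All FGF2 points but that of CDK4 lie above 0, 12 of them filled, and all BMP4 points are open and lie between -0.25 and 0.35.

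Genes that MYC is known to repress moved less uniformly. Of 20 listed genes, 17 were tested with limma, and with FGF2 4 fell and 1 rose, where 5.78% of all genes were lower and 6.03% higher. GADD45B, a stress-response gene, read 11.83 and 11.75 in -GFs and 10.16 and 10.45 with FGF2, and changed by -1.48 (adjusted p 0.00808). CCNG2, a cyclin of cells that leave the cycle, changed by -1.25 (adjusted p 0.0415), and NDRG2, a gene of the NDRG family, by -1.24 (adjusted p 0.0178). DDIT3, a transcription factor of the stress response, was the last of the 4 and changed by -0.89 (adjusted p 0.0559). GADD45A, a relative of GADD45B, moved the other way, by 0.82 (adjusted p 0.041). The median of the list was -0.35, and CDKN1A, the cell cycle inhibitor p21, changed by 0.02 (adjusted p 0.962). With the block 8 fell and 4 rose, against 19.6% and 18.1% of all genes. Fewer of the list fell without -GFs replicate 1 or without either array of FGF2, where fewer of all genes passed as well. The number that fell was unchanged without -GFs replicate 2 or either array of BMP4. The motif CACGTG was found in 2 of 18 windows of this list (11.1%), against 7.15% of all windows.

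Of the genes that MLX controls with MondoA or ChREBP, 4 of 9 were tested. TXNIP, an inhibitor of glucose uptake and the best known MondoA target, read 14.26 and 14.56 in -GFs, 13.26 and 13.32 with FGF2, and 14.06 and 13.75 with BMP4. The FGF2 arrays were the lowest, with a log2 change of -1.12 (adjusted p 0.0213 with limma). SLC2A1, the glucose transporter GLUT1, changed by 0.94 in the other direction (adjusted p 0.0348). ARRDC4, a relative of TXNIP and also a MondoA target, changed by 0.60 and did not pass (adjusted p 0.113, or 0.00363 with the block). Neither TXNIP nor SLC2A1 passed when an array of FGF2 was left out, and SLC2A1 did not pass without -GFs replicate 1.

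With BMP4, which was compared with the same -GFs arrays, 0 of 36 MYC-activated genes, 0 of 17 MYC-repressed genes, 0 of 24 network partners and 0 of 4 MLX partner targets passed with limma. Of all genes only 0.00842% passed, so that a count of 0 is not particular to these lists. At an unadjusted p under 0.05 the counts were 0, 1, 1 and 1, against 1.81% of all genes. The median log2 change of the MYC-activated genes was 0.12, against 0.00 over all genes, and with median scaling it was 0.04 against -0.07. The gene of the MYC-repressed list with the largest value was ID2 (listed as IDB2), a target of BMP signaling, and it is named here after its values were seen. It read 8.50 and 7.87 in -GFs and 11.53 and 9.31 with BMP4, and although both BMP4 arrays were above both -GFs arrays, its log2 change of 2.24 (SE 0.64) had an adjusted p of 0.999, or 0.000905 with the block.

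**Figure D4:**
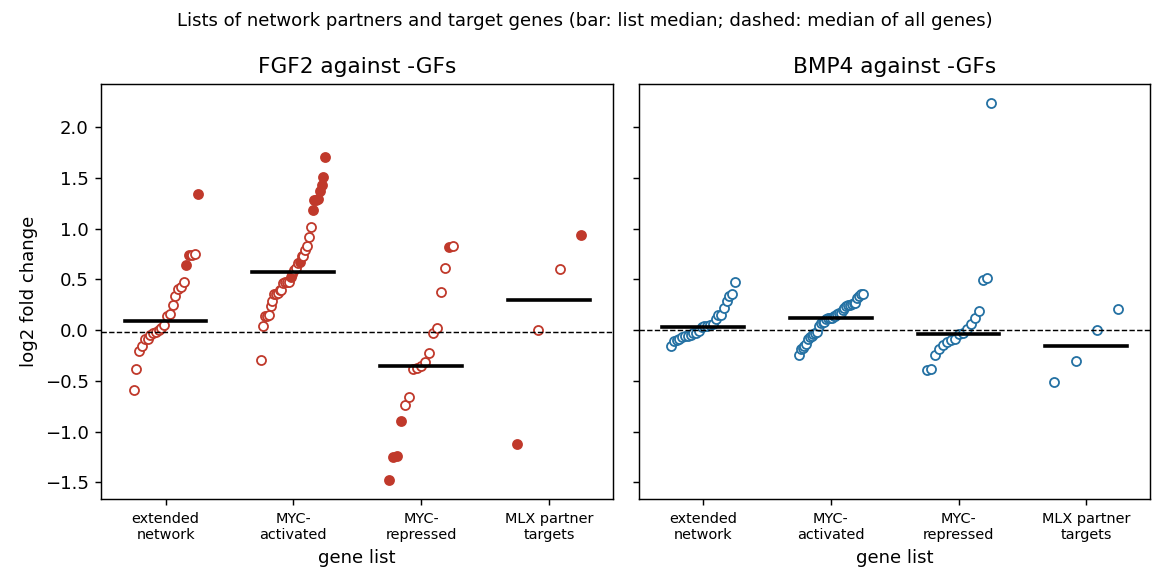
Log2 fold change against -GFs (vertical axis) of each tested gene of 4 lists (horizontal axis), with FGF2 on the left and BMP4 on the right; points are ordered by value and filled for an adjusted p under 0.1, the bar is the median of the list and the dashed line that of all genes. With FGF2 the medians are 0.57 for MYC-activated and -0.35 for MYC-repressed genes, and with BMP4 they are 0.12 and -0.03.

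Among genes of the serum response, 10 of 13 tested rose with FGF2 and 0 fell with limma, against 6.03% of all genes higher. This list too was chosen with earlier results of these data known, so its direction is a description. Fewer of them passed when an array of FGF2 was left out, where far fewer of all genes passed as well. EGR1 and EGR2, early transcription factors, rose by 4.19 (adjusted p 0.00459) and 4.13 (adjusted p 0.0011), and DUSP6, a phosphatase of the ERK pathway, by 3.55 (adjusted p 0.00305). MYC, with a change of 0.40, was not among the genes that passed at the same time point. Its probe was at the edge of detection, and with background correction from the control probes its change was 0.88 (adjusted p 0.325 with limma).

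Across the 6 arrays, the genes with the profile most like that of the MYC probe, among 9694 genes detected on all arrays, were U2AF1 (Pearson r 0.995), MINA (0.992), ADCK4 (0.991), E430031D18RIK (0.991) and STX6 (0.988). None of these 5 passed with FGF2 in limma, with log2 changes of 0.27 to 0.40. These correlations describe 6 points that share treatments and replicate numbers, and with the MYC probe undetected on 3 of the 6 arrays they are partly correlations with background signal. The correlation of MYC with MXD4 was -0.62.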

How the data were processed

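Expression was measured in 6 samples of PA6 cells, 3 groups of 2, grouped by the labels. The authors deposited array intensities, which are mean bead brightness on a linear scale before any normalization between arrays, and for every intensity a detection p-value. Per the labels they came from GenomeStudio 2011.01. Of the table, 9 unnamed columns that hold values on 2045 lines and 6 stray lines at the end were not used, which left 45281 probes.

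The cubic spline normalization of the methods was rebuilt in R 4.3.3 with 452 quantiles per array, followed by log2. Probes were kept where some group had both arrays at a detection p under 0.05, and each gene was taken by its brightest probe (11872 genes). limma 3.58.1 (lmFit, eBayes) was fitted on all 6 arrays without a block (3 residual degrees of freedom), and p was adjusted by Benjamini-Hochberg over all genes. A gene was called where its adjusted p was under 0.1 and its log2 fold change beyond 1 in either direction, as in the methods. Where a probe was undetected on both arrays of a group, its fold is given only as a bound, which leaves out the spread between arrays. Any fitted difference then describes signal at background. The smallest two-sided exact permutation p of 2 against 2 arrays is 0.333, so none was used. p-values measure the spread between wells of 1 cell line, which without the block includes the difference between the 2 replicates. With FGF2, 11.8% of all genes passed on the adjusted p without the block and 37.7% with it.

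Arrays are paired by replicate number. The labels make each replicate a set of 3 wells, and arrays of 1 number deviated together from their group means (r 0.602 between -GFs and FGF2, 0.741 between -GFs and BMP4, 0.579 between FGF2 and BMP4). The genes, the lists and the tests were chosen with earlier results of these data known. Of each list, the 3 largest rises and falls with FGF2 that passed are named, with others for their role. Old array names were matched through RefSeq (21742 of 30854 equal a current symbol or synonym). The alternatives were quantile normalization, limma's neqc, median scaling, other detection filters, the mean of the probes, every probe, the block, trend and robust fitting, the 4 arrays compared, an adjusted p under 0.05, and each array left out. Leaving out an array of a compared group leaves 1 array in it. For FGF2 against -GFs or BMP4, fewer of all genes then pass, so a lost pass need not be particular to a gene or list. The number of arrays limits precision. BMP4 is given at the dose of the labels.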

Additional observations from a re-analysis of the deposited data

How the results depend on the processing

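All 6 tested genes kept the direction of their change with FGF2 in every alternative that gave a value. Most could not turn it, since the filters, the block and trend and robust fitting leave the log2 change of a probe unchanged. The direction could turn only with another scaling, with the mean of the probes or without an array of -GFs or FGF2. The second MYC probe, detected on no array, entered none of these values. With BMP4 the counts of genes called or passing stayed at 0 in every alternative that kept 2 arrays per group, for the tested genes and for the MYC-activated genes. The number of tested genes called with FGF2 (0) became 1 with neqc and 1 with neqc with replicate block, in both cases MXD3, and 1 with the mean of the probes and 1 with every probe, in both cases MXD4. Their number at an adjusted p under 0.1 (2) was 1 with detection on all 6 arrays, 1 with a detection p under 0.01 and 1 at an adjusted p under 0.05, each time MXD4, and 0 to 2 with single arrays left out. With the replicate block it was 4, and 4 with neqc and the block, adding MYC (adjusted p 0.0481 and 0.0384) and MLX (0.0411 and 0.0588).

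The 12 MYC-activated genes that rose became 6 with neqc, 7 with median scaling, 5 at an adjusted p under 0.05, 29 with the replicate block, 25 with neqc and the block, and 3 to 9 with single arrays left out. For FGF2 against BMP4, the count called (0) was 1 with the mean of the probes, 1 with every probe (MXD4) and 1 with neqc and the block (MYC), and the count at an adjusted p under 0.1 (1) was 4 with the replicate block, 4 with neqc and the block, and 0 to 1 with single arrays left out. The causes were not tested.

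Small changes with BMP4 turned their sign: MXD4 (0.08) was -0.021 with median scaling, which moved the median of all genes from 0.00 to -0.07, and -0.014 with the mean of the probes, MYC, undetected with BMP4 (-0.14), was 0.14 without -GFs replicate 2 and 0.17 without BMP4 replicate 1 (range with single arrays left out -0.44 to 0.17), and MLX (0.03) was -0.07 without -GFs replicate 1 and -0.13 without BMP4 replicate 2 (range -0.13 to 0.20). Besides the changes given here and in the comparisons above, the block changed no call of the 6 tested genes. Leaving out each array for the single probes of MXD4 and MXD3, and each array and other scalings for the lists besides the MYC-activated genes, was chosen after seeing the data. Signal over background limits all of these genes but MXD4, since 52 of 84 probe values were below detection.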
